A study of Mus musculus with 48 samples.

Results

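Mutations in a small set of genes have been linked to inherited forms of Parkinson disease. Of these genes, 8 were followed here: Pink1, Park7, Fbxo7, Lrrk2, Vps35, Synj1, Atp13a2 and Uchl1. They were taken by symbol from the 19601 genes with batch-corrected values, and all 8 were found. Transcripts were measured by bulk RNA sequencing of substantia nigra from male C57Bl/6J mice that received an injection of mouse α-synuclein into the striatum of one hemisphere at 121 days of age, either as preformed fibrils (PFFs), which seed aggregation, or as monomer, the control. Mice breathed 21% O2 (normoxia) or 11% O2 (hypoxia) in chambers, and the whole substantia nigra was taken 90 to 98 days after injection. Of 48 mice, 42 were analysed: 11 monomer-injected and 12 PFF-injected mice breathing 21% O2, and 9 monomer-injected and 10 PFF-injected mice breathing 11% O2. The sources differ on whether hypoxia lasted for the whole period or for its second part. In the paper's Results, hypoxia from the start was given to monomer-injected and PFF-injected mice, and delayed hypoxia to PFF-injected mice only. No group carried a mutation in any of the 8 genes according to the labels, so the comparisons are of their transcript levels under injection and oxygen. Each library was from a separate mouse by its label.

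None of the 8 genes changed by the criterion of an adjusted p under 0.05 with an absolute log2 fold change over 0.25 in any comparison of injection or oxygen. Of all genes, 0% to 7.23% met it, depending on the comparison. With only 8 genes, nothing about them as a group is read from a count of 0. The larger differences between groups were small: on the log2 scale, Lrrk2 and Synj1 were lower after PFF injection in mice breathing 21% O2 by 0.20 and 0.13, and Fbxo7 was higher by 0.14, and Lrrk2 and Vps35 lower by 0.16 and 0.13, in monomer-injected mice breathing 11% O2. Of these differences, only that of Lrrk2 after PFF passed the adjusted p (0.0293 from edgeR). The others had adjusted p of 0.0518 to 0.131. From mouse to mouse within a group, 8 of the 28 pairs of these genes were correlated at an adjusted permutation p under 0.05, 6 positively and 2 negatively, with Pearson's r between -0.66 and 0.64 over all pairs. The share of pairs of other genes that would pass was not computed, so nothing particular to these genes is read from the count.

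The 8 proteins act in connected steps of organelle care. PINK1 is a kinase that gathers on damaged mitochondria and helps mark them for removal. DJ-1, encoded by Park7, protects cells from oxidative stress, and FBXO7 is the substrate receptor of an SCF ubiquitin ligase. LRRK2 phosphorylates RAB GTPases on membranes, VPS35 is the core of the retromer that returns cargo from endosomes, and synaptojanin 1, encoded by Synj1, removes phosphate from phosphoinositides so that endocytic vesicles shed clathrin at synapses. ATP13A2 exports polyamines from lysosomes, and UCHL1 is an abundant neuronal enzyme that cleaves ubiquitin from small adducts. Disease through PINK1, DJ-1, FBXO7, synaptojanin 1 and ATP13A2 is recessive, and that through LRRK2 and VPS35 is dominant, with LRRK2 mutations raising its kinase activity.

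In the GRCm38 annotation of GENCODE release vM21, whose gene identifiers matched those of the files for all 8 genes, 3 genes lay on chromosome 4. These were Pink1 (ENSMUSG00000028756.12, chr4:138313409-138326307, minus strand), Atp13a2 (ENSMUSG00000036622.15, chr4:140986873-141007330, plus strand) and Park7 (ENSMUSG00000028964.14, chr4:150897133-150914437, minus strand). Uchl1 (ENSMUSG00000029223.12) was at chr5:66676091-66687234 on the plus strand, Vps35 (ENSMUSG00000031696.9) at chr8:85260392-85299802 on the minus strand and Fbxo7 (ENSMUSG00000001786.14) at chr10:86021972-86051873 on the plus strand. Lrrk2 (ENSMUSG00000036273.15) was at chr15:91673175-91816120 on the plus strand and Synj1 (ENSMUSG00000022973.18) at chr16:90936092-91011308 on the minus strand. Their exonic length ran from 1632 bases for Uchl1 to 11834 for Lrrk2. Genes on the opposite strand overlapped exons of 4 of them, and no strand setting was given for the counting. Uchl1os covered 18.1% of the exonic bases of Uchl1, A230060F14Rik 5.08% of those of Fbxo7, Orc6 1.92% of those of Vps35 and 4930404I05Rik 0.742% of those of Synj1. These partners had at most 17, 16, 342 and 47 counts in any of the 42 mice before correction. The corrected counts of Uchl1, Fbxo7, Vps35 and Synj1 were at least 4846, 790, 2234 and 3582. Partner counts do not measure the reads in the shared stretches, and the effect of the overlap was not tested.

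RefSeq promoter windows of GRCm38.p6, which span 300 bases around a transcript start, most of them before it, were held for 7 of the 8 genes, 9 windows in all, with 2 each for Fbxo7 and Synj1. They were searched on both strands for ACGTG, one form of the core of the hypoxia response element to which HIF binds, and for CACGTG, the E-box, which itself contains ACGTG on each strand. Of 32817 promoter windows, 19.6% held ACGTG and 7.15% held CACGTG. Of the 9 windows, 1 held either. It was the window at the second start of Fbxo7, with ACGTG on the other strand at position -24 from the start and CACGTG at position 43. Fbxo7 had the largest increase of the 8 genes under hypoxia in monomer-injected mice. That log2 fold change, 0.14, did not pass (adjusted p = 0.0518 from edgeR), and it was -0.00094 in PFF-injected mice. Whether the letters bear on it was not tested. The windows of Fbxo7 (chr10:86021904-86022203, plus strand) and of Lrrk2 (chr15:91672974-91673273, plus strand), which had the largest decrease of the 8 in the same comparison, are shown 5′ to 3′ with the matches in capitals. The window of Lrrk2 held no match.
Fbxo7: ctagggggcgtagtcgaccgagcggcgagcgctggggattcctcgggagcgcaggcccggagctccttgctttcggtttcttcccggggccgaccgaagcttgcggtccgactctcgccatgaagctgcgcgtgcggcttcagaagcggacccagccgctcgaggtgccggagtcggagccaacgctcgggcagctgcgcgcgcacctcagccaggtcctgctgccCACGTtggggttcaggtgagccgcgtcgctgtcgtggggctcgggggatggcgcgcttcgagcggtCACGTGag
Lrrk2: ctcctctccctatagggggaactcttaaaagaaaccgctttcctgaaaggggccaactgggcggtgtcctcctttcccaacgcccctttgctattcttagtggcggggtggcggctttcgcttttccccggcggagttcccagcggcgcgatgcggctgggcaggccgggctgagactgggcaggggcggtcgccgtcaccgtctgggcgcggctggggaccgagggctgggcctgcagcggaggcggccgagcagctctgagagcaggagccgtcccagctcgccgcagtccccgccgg
A match of these letters is a description of the window and not a measured binding site. The other window of Fbxo7 (chr10:86021679-86021978), at the upstream start, had no match, and neither did those of Pink1, Park7, Atp13a2, Uchl1 and Synj1.

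Libraries of the 42 mice held 12902996 to 17120921 counts on genes, and 6 mice that the study set aside as outliers in a principal component analysis were left out. All 8 genes passed the filter on low counts, as did 14839 genes in all. The tissue was checked by 11 markers of dopaminergic neurons, of which none was at 0: the lowest mouse had 96.1 and the highest 1079 TPM (transcripts scaled for gene length and library total) of Th, tyrosine hydroxylase, the rate-limiting enzyme of dopamine synthesis. The summed level of these markers spanned 1156 to 5726 TPM over mice. Its medians were 3490 in monomer-injected and 3358 in PFF-injected mice at 21% O2, and 3810 and 3688 at 11% O2. Taken singly, 8 of the 11 markers were higher after PFF at 21% O2, and their median change was 0.06 on the log2 scale. At 11% O2, 4 of 11 were higher after PFF and the median was -0.04. No marker of the list met the criterion in either comparison. In bulk tissue, fewer cells of a type and less RNA per cell cannot be told apart.

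In TPM, Uchl1 was the most abundant of the 8 genes (979 ± 97.0, mean and SD over 42 mice), followed by Pink1 (714 ± 48.6), Park7 (233 ± 13.9), Synj1 (164.7 ± 16.6), Atp13a2 (131 ± 14.1), Vps35 (79.0 ± 6.29), Fbxo7 (44.9 ± 3.55) and Lrrk2 (6.71 ± 0.795). This order held in each of the 42 mice. The ranges of Uchl1 and Pink1 overlapped, the lowest mouse for Uchl1 being at 809 TPM and the highest for Pink1 at 819, and so did those of Park7 with Synj1 and of Synj1 with Atp13a2. Vps35, Fbxo7 and Lrrk2 each stayed clear of the gene above. Uchl1 stood at the 99.6th percentile of genes with a mean TPM above 0, Pink1 at the 99.4th and Lrrk2 at the 41.4th. Lrrk2, with a median of 298 and at most 413 corrected counts per mouse, was the least deeply counted of the 8, and Pink1, with 5530 to 8637, the most.

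**Figure D1:**
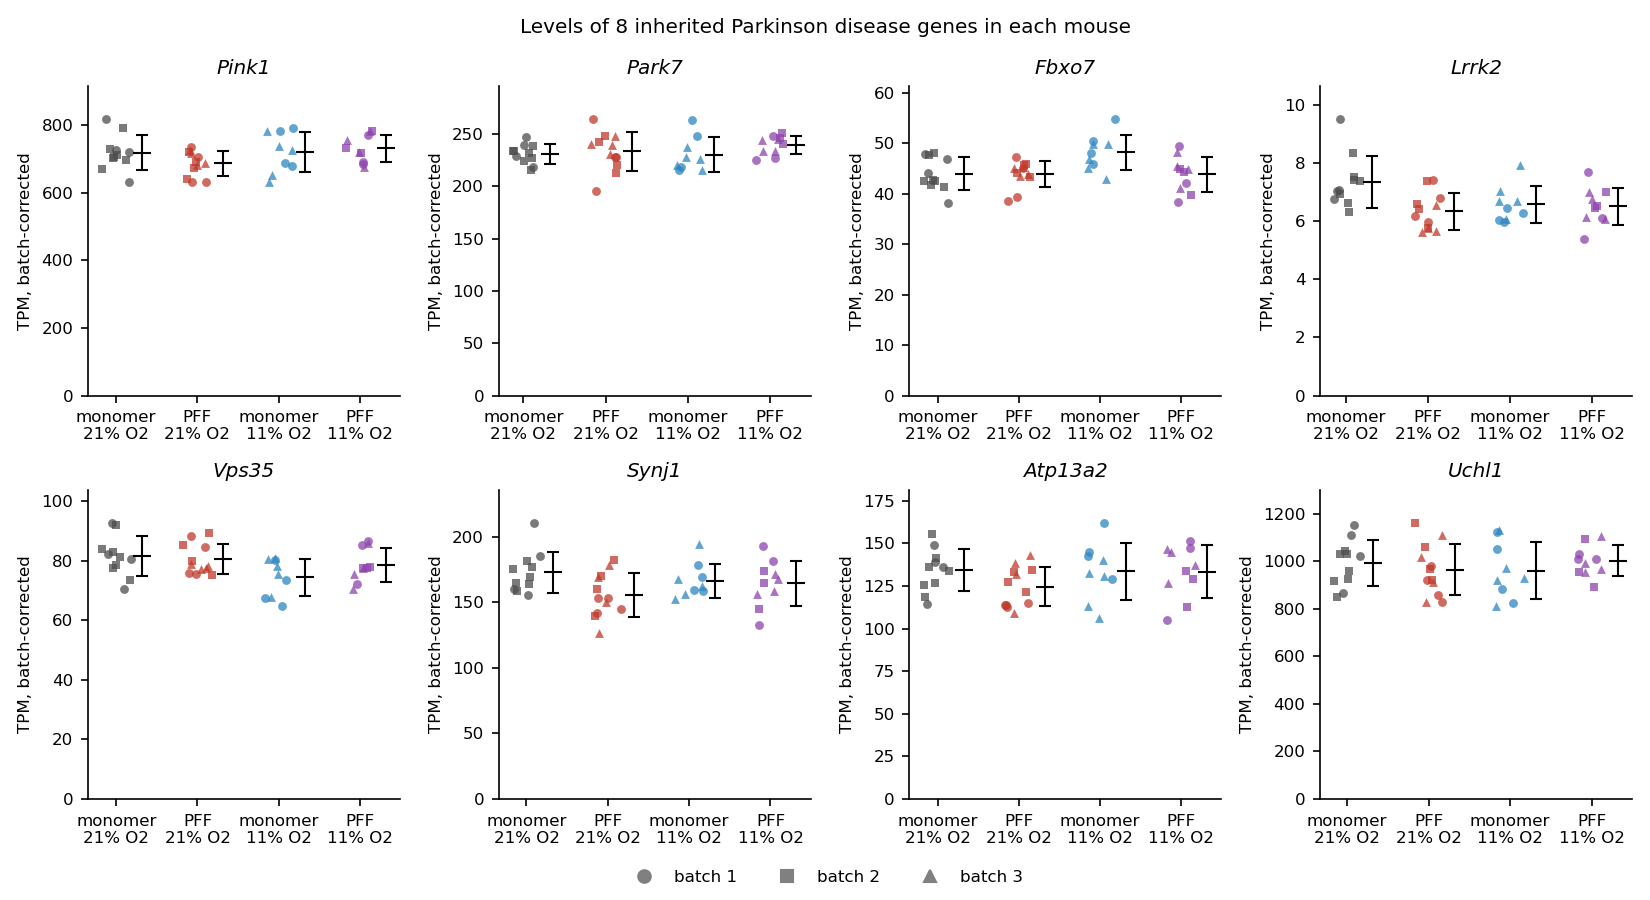
Batch-corrected TPM of each gene (vertical axes from 0) in each of 42 mice by group, with the marker shape giving the batch; the bar and whiskers are the mean ± SD. The groups overlap in all 8 panels, and Lrrk2 at 21% O2 shows an offset, from 7.37 ± 0.890 TPM in 11 monomer-injected to 6.35 ± 0.631 in 12 PFF-injected mice.

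Of the genes of mitochondrial care, Pink1 was at 633 TPM in the lowest, 713 in the median and 819 in the highest monomer-injected mouse breathing 21% O2, and at 631, 690 and 737 in PFF-injected mice. Under 11% O2 the corresponding levels were 634, 729 and 794 in monomer-injected and 676, 728 and 785 in PFF-injected mice. The 4 groups overlapped over most of their range. The log2 fold change of Pink1 was -0.05 for PFF against monomer at 21% O2 (95% interval -0.14 to 0.04) and 0.04 at 11% O2 (-0.06 to 0.14). For 11% against 21% O2 it was 0.0053 in monomer-injected (-0.09 to 0.10) and 0.09 in PFF-injected mice (0.0027 to 0.18, adjusted p = 0.446 by the edgeR quasi-likelihood test). In the last comparison 4 of 10 hypoxic mice were above the highest normoxic mouse, and the value was 0.08, 0.16 and 0.05 within batches 1, 2 and 3.

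Park7 was the steadiest of the 8, with a coefficient of variation of 5.96% over all mice. It ran from 216 through a median of 232 to 247 TPM in monomer-injected and from 195 through 235 to 264 in PFF-injected mice at 21% O2. At 11% O2 it ran from 215.5 through 226 to 263 and from 225 through 242 to 251. These groups overlapped throughout, and the log2 fold changes were 0.03 and 0.07 for PFF at 21% and 11% O2, and 0.00063 and 0.04 for hypoxia in monomer-injected and PFF-injected mice. The highest upper bound of these intervals was 0.16.

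Fbxo7 was at 38.2, 42.6 and 47.99 TPM in the lowest, median and highest monomer-injected mouse at 21% O2, and at 42.9, 48.1 and 54.8 in monomer-injected mice at 11% O2. All 9 hypoxic mice were above the median of the normoxic ones and 5 were above the highest of them, while 6 of the 11 normoxic mice were below the lowest hypoxic mouse. PFF-injected mice ran from 38.5 through 44.6 to 47.3 TPM at 21% O2 and from 38.4 through 44.6 to 49.4 at 11% O2. Hence the level of monomer-injected mice at 11% O2, 48.2 ± 3.52 (n = 9), stood above the other 3 group means, which lay between 43.9 and 44.0. The log2 fold change for hypoxia in monomer-injected mice was 0.14 ± 0.05 (SE; 95% interval 0.04 to 0.23), an increase of 9.96%, with an adjusted p of 0.0518 from edgeR, above the threshold. DESeq2 gave an adjusted p of 0.0418, and in 15 of 42 fits that each left out 1 mouse the edgeR value passed. For PFF against monomer at 11% O2 it was -0.12 (-0.22 to -0.02, adjusted p = 0.9997 from edgeR), and 4 of 10 PFF-injected mice were below the lowest monomer-injected mouse. The monomer-injected mice at 11% O2 are shared by both contrasts. In batch 1, which alone held both oxygen levels for monomer-injected mice, the log2 fold change was 0.18.

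Among the genes of membrane traffic, Lrrk2 was at 6.34, 7.07 and 9.52 TPM in the lowest, median and highest monomer-injected mouse at 21% O2 and at 5.62, 6.31 and 7.41 in PFF-injected mice. Of the 12 PFF-injected mice, 6 were below every monomer-injected mouse and 10 below their median, and 4 of 11 monomer-injected mice were above every PFF-injected mouse. The log2 fold change was -0.20 ± 0.06 (SE; 95% interval -0.31 to -0.08), that is 12.7% lower, with an adjusted p of 0.0293 from edgeR. It therefore passed the adjusted p but not the fold change of 0.25, and the interval reached beyond that fold change. Before correction, Lrrk2 averaged 7.09 ± 0.815 (n = 4) and 6.14 ± 0.421 TPM (n = 4) in monomer-injected and PFF-injected mice of batch 1, and 6.49 ± 0.661 (n = 7) and 5.91 ± 0.656 (n = 4) in batch 2. The change within these batches was -0.18 and -0.13, the same direction in each, with adjusted p of 0.381 and 0.407 from edgeR, and batch 3 held no monomer-injected mouse at 21% O2. The adjusted p of edgeR no longer passed without monomer-injected mouse 4 (-0.16, 0.0753) or 11 (-0.18, 0.0569) or PFF-injected mouse 10 (-0.18, 0.0626) or 12 (-0.18, 0.0546). It also did not pass in a fit of all 48 mice (-0.17, 0.118). That fit used counts before correction with batch as a covariate, so the added mice and these changes cannot be told apart.

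At 11% O2, Lrrk2 ran from 5.98 through 6.47 to 7.94 TPM in monomer-injected and from 5.41 through 6.49 to 7.70 in PFF-injected mice. These groups covered almost the same range, and the fold change between them was -0.00094 (95% interval -0.13 to 0.13). Against 21% O2, the monomer-injected mice were lower by 0.16 (-0.28 to -0.03, adjusted p = 0.0901 from edgeR), and the PFF-injected mice differed by 0.04 (-0.08 to 0.16). Both contrasts in which Lrrk2 was lower used the same 11 monomer-injected mice at 21% O2, the group with the highest mean. The difference between the PFF effects at the 2 oxygen levels, which is the interaction of injection and O2, was 0.20 (95% interval 0.02 to 0.37) with an adjusted p of 0.2501 from edgeR.

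Vps35 was at 70.5, 81.4 and 92.8 TPM in the lowest, median and highest monomer-injected mouse at 21% O2 and at 65.0, 75.6 and 81.1 in those at 11% O2. All 9 hypoxic mice were below the normoxic median and 3 were below the lowest normoxic mouse. The log2 fold change was -0.13 ± 0.05 (SE; 95% interval -0.22 to -0.03, adjusted p = 0.0682 from edgeR). PFF-injected mice ran from 75.1 through 78.7 to 89.3 TPM at 21% O2 and from 70.4 through 77.6 to 86.6 at 11% O2. The remaining differences of Vps35 were smaller, at -0.00045 for PFF at 21% O2, 0.09 for PFF at 11% O2 and -0.03 for hypoxia in PFF-injected mice.

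Synj1 was at 155, 169 and 210.8 TPM in the lowest, median and highest monomer-injected mouse at 21% O2 and at 127, 153 and 182.06 in PFF-injected mice, 7 of which were below every monomer-injected mouse. The log2 fold change was -0.13 (95% interval -0.24 to -0.02, adjusted p = 0.131 from edgeR). Within batches it was -0.21 in batch 1 and -0.04 in batch 2. At 11% O2 the levels were 152, 162.2 and 194 in monomer-injected and 133, 166.4 and 192.7 in PFF-injected mice, and the fold change was -0.0050 (-0.13 to 0.12).

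The lysosomal exporter gene Atp13a2 ran from 115 through 136 to 155 TPM and from 109 through 124 to 143 TPM in monomer-injected and PFF-injected mice at 21% O2. At 11% O2 it ran from 106 through 133 to 162.2 and from 105 through 136 to 151. Its groups overlapped throughout, and its log2 fold changes were -0.09 and 0.01 for PFF at 21% and 11% O2, and -0.0038 and 0.10 for hypoxia in monomer-injected and PFF-injected mice. The 2 batches with both groups at 11% O2 gave opposite signs for PFF, -0.08 in batch 1 and 0.19 in batch 3.

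Uchl1, the ubiquitin hydrolase, ran from 851 through 1023 to 1153 TPM and from 826 through 944 to 1162 TPM in monomer-injected and PFF-injected mice at 21% O2. At 11% O2 it ran from 809 through 928 to 1133 and from 890 through 1002 to 1107. Again all groups overlapped, with log2 fold changes of -0.02 and 0.08 for PFF at 21% and 11% O2 and of -0.04 and 0.06 for hypoxia in monomer-injected and PFF-injected mice. For PFF at 21% O2 the sign differed between batches, with -0.16 in batch 1 and 0.11 in batch 2.

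**Figure D2:**
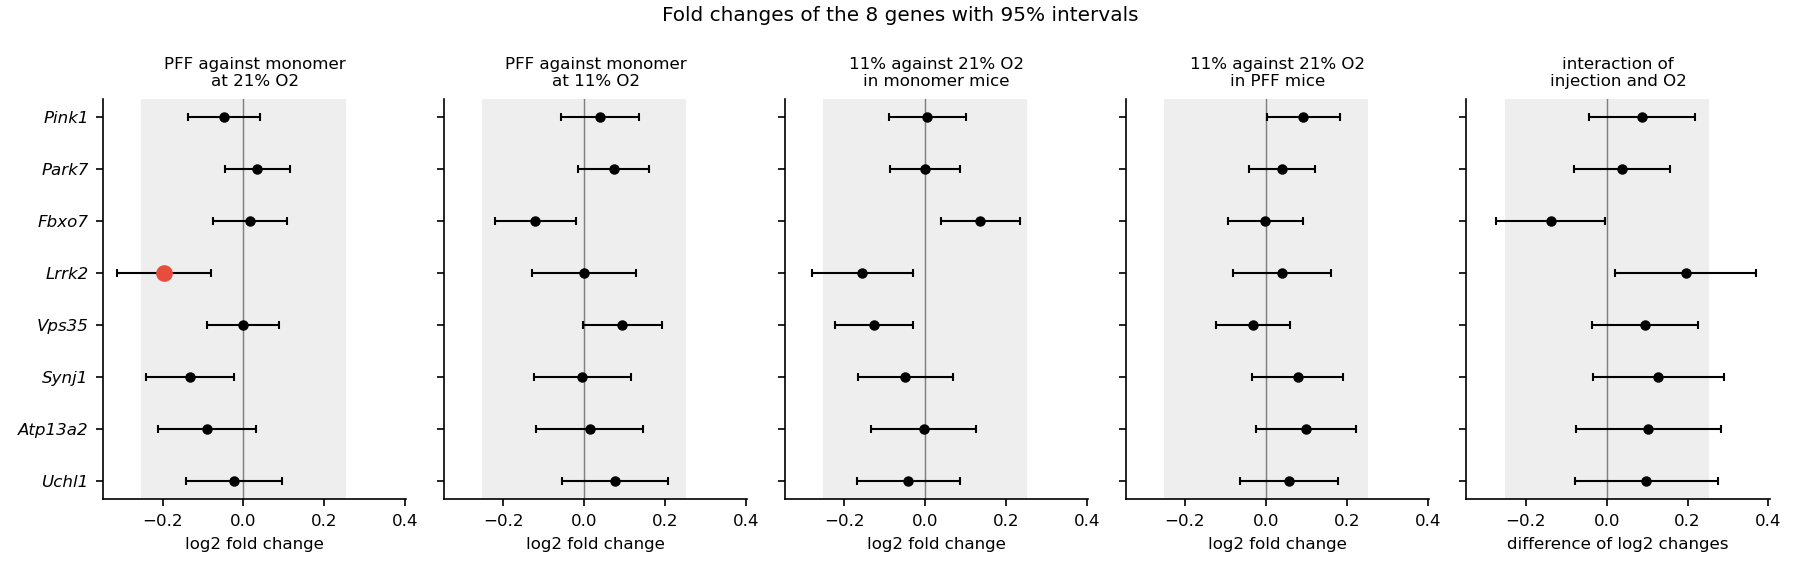
Log2 fold change (horizontal axes; for the interaction, a difference of log2 changes) of each gene in 5 comparisons, with 95% intervals from edgeR on 42 mice; the grey band spans -0.25 to 0.25 and the large red point passed an adjusted p of 0.05. Only Lrrk2 for PFF at 21% O2 is red, at -0.20, and 33 of the 40 intervals lie inside the band.

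The first comparison asked what aggregation seeded by PFFs changed in normoxia. Here 0 of 8 genes passed both thresholds, against 3.7% of 14839 genes, and 1 of 8 passed the adjusted p alone, against 7.59%. At an unadjusted p under 0.05 there were 2 of 8, Lrrk2 and Synj1, against 22.4% of all genes. The median absolute log2 fold change was 0.04 over the 8 genes and 0.07 over all genes, and 7 of the 8 intervals lay inside ±0.25. The exception was Lrrk2.

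Under 11% O2, PFF against monomer injection gave 0 of 8 genes past both thresholds, against 0% of all genes in edgeR. In this comparison 581 genes, or 3.92%, had an unadjusted p under 0.05, among them 1 of the 8, Fbxo7, the smallest adjusted p was 0.244, and DESeq2 called 1 gene, which was none of the 8. All 8 intervals lay inside ±0.25, from -0.22 to 0.21, so that a change of the size of the threshold was outside each of them.

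The effect of oxygen was asked in each injection group. In monomer-injected mice, 0 of 8 genes passed both thresholds, against 7.23% of all genes, and 0 of 8 passed the adjusted p alone, against 13.2%. At an unadjusted p under 0.05 there were 3 of 8, Fbxo7, Vps35 and Lrrk2, against 27.7%. In PFF-injected mice, 0 of 8 genes passed both thresholds, against 0.58% of all genes, and only Pink1 had an unadjusted p under 0.05, against 10.7%. The interaction of injection and O2 gave 0 of 8, against 2.14%, with log2 differences from -0.14 for Fbxo7 to 0.20 for Lrrk2. Above 0 were 7 of 8, against 49.7% of all genes. Of the 8 intervals of the interaction, which has the larger SE, 3 lay inside ±0.25. PFF at 21% O2, hypoxia in monomer-injected mice and the interaction share the monomer-injected mice at 21% O2.

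The partners of these genes were then examined by lists, which were chosen with earlier results of these data known. Among 25 tested genes of other inherited or risk loci of Parkinson disease, 1 rose and none fell after PFF at 21% O2, against 3.7% of all genes called, and 1 rose under hypoxia in monomer-injected mice, against 7.23%. These shares of the list were near or below those of all genes. Both times the gene was Rab32, a RAB GTPase that binds LRRK2. Rab32 was at 4.61 ± 1.03 TPM (n = 11) in monomer-injected and 5.97 ± 0.774 (n = 12) in PFF-injected mice at 21% O2, and at 5.92 ± 1.21 (n = 9) in monomer-injected mice at 11% O2. Its log2 fold changes were 0.38 ± 0.12 (SE, adjusted p = 0.0374) and 0.36 ± 0.13 (adjusted p = 0.0490) in edgeR. The 2 contrasts share their control mice, and the groups overlapped in both. The median log2 fold change of the list lay between -0.02 and 0.02 in all 5 comparisons.

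In the list of PINK1-dependent mitophagy, 0 of 30 tested genes were called in any comparison. Of all genes, 3.7% were called for PFF at 21% O2, 7.23% for hypoxia in monomer-injected mice and at most 2.14% in the other comparisons. With lists this small, nothing about a list is read from a count of 0. The gene with the smallest p for PFF at 21% O2 and for hypoxia in monomer-injected mice was Parl, the mitochondrial protease that cleaves PINK1, at 0.15 and 0.16 with adjusted p of 0.0367 and 0.0224 from edgeR, both below the fold change of the criterion. Optn, a mitophagy receptor, had the smallest p for the interaction, at -0.13 (adjusted p = 0.262 from edgeR). Tomm5, a subunit of the outer membrane import pore through which PINK1 passes, had it for PFF at 11% O2, at 0.12 (adjusted p = 0.9997). None of 22 LRRK2 interactors and RAB substrates was called either, against the same shares of all genes. In this list 3 of 22 genes were higher after PFF at 21% O2, against 50.4% of all genes, with a median of -0.02 against 0.00085. The list was not tested as a set. Rab8b, a kinase substrate of LRRK2, had the smallest p in this comparison, at -0.10 (adjusted p = 0.189 from edgeR).

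The retromer and the WASH complex that works with it had 0 of 22 genes called, against at most 7.23% of all genes. Washc3 was at 0.18 after PFF at 21% O2 (adjusted p = 0.0283) and Tbc1d5, which inactivates the retromer partner RAB7, at 0.15 under hypoxia in monomer-injected mice (adjusted p = 0.0282), both by edgeR and both short of the fold change of 0.25. Of 29 genes of synaptic vesicle endocytosis and uncoating, 0 were called, again against at most 7.23% of all genes. Hspa8, the chaperone that strips clathrin coats together with auxilin, was at -0.14 (adjusted p = 0.0304) for PFF at 21% O2 and at -0.21 (adjusted p = 0.000852) for hypoxia in monomer-injected mice in edgeR. Dnm1, the neuronal dynamin, led hypoxia in PFF-injected mice at 0.20 (adjusted p = 0.190 from edgeR).

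Genes of the P5-ATPase family and of polyamine metabolism, the context of Atp13a2, formed a list of 17. Of these genes, 1 rose after PFF at 21% O2, against 3.7% of all genes called, 2 rose under hypoxia in monomer-injected mice, against 7.23%, and the interaction called 1 in each direction, against 2.14%. With so few genes in the list, nothing about the list is read from these counts. Sat2, an acetyltransferase related to the polyamine-degrading Sat1, was at 36.2 ± 5.06 and 43.8 ± 5.17 TPM in monomer-injected and PFF-injected mice at 21% O2 and at 43.1 ± 4.35 and 39.4 ± 1.72 at 11% O2. It rose by 0.30 with PFF at 21% O2 (adjusted p = 0.00295 from edgeR) and by 0.26 with hypoxia in monomer-injected mice (adjusted p = 0.00926), and its interaction was -0.41 (adjusted p = 0.0113). Atp13a5, a P5-ATPase related to Atp13a2, rose by 0.40 under hypoxia in monomer-injected mice (adjusted p = 0.000313 from edgeR), from 12.7 ± 1.61 to 16.7 ± 2.23 TPM. Srm, spermidine synthase, had an interaction of 0.34 (adjusted p = 0.0323 from edgeR), with 78.4, 68.1, 69.3 and 76.3 TPM on average in monomer-injected and PFF-injected mice at 21% O2 and then at 11% O2. The corresponding values of Atp13a2 were -0.09, -0.0038 and 0.10, with no call.

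In the list of the SCF ligase of FBXO7, its partner PI31 and ubiquitin supply, 1 of 16 tested genes was called once, for the interaction, against 2.14% of all genes. Skp1a, the adaptor that holds FBXO7 in the ligase, was at -0.14 for hypoxia in monomer-injected mice (adjusted p = 0.0355 from edgeR), below the fold change of 0.25.

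Markers of cell types moved between the same groups. Under hypoxia in monomer-injected mice, 7 of 7 endothelial markers rose, against 7.23% of all genes called in either direction, by a median of 0.52 on the log2 scale, and their summed level was 211.8 to 284 TPM in normoxic and 285 to 519 in hypoxic mice. In the same contrast, with the same 7.23% of all genes called, 2 of 10 oligodendrocyte markers rose, Mog by 0.32 and Cnp by 0.26, with a median of 0.16 over the list. Neuron markers were lower in 9 of 10 cases, with a median of -0.05 and no call, and likewise after PFF at 21% O2 with a median of -0.06. All 9 microglia markers were higher in both contrasts, with medians of 0.18 and 0.15 and no call. Called after PFF at 21% O2 were 1 of 7 endothelial markers, Slco1a4, at 0.45 (adjusted p = 0.0416 from edgeR), and 1 of 5 markers of oligodendrocyte precursors, Gpr17, at -0.43 (adjusted p = 0.00143). Of all genes, 47.9% were higher under hypoxia in monomer-injected mice and 50.4% after PFF at 21% O2, where 3.7% were called. The marker lists were not tested as sets. None of these lists held a marker at 0, and summed neuron markers were 4577 to 5287 TPM in monomer-injected and 4349 to 5100 in PFF-injected mice at 21% O2. Their part in the differences of Fbxo7, Lrrk2, Vps35 and Synj1 was not tested.

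How the 8 genes varied from mouse to mouse was described by correlating log2 CPM, that is counts scaled for library total, after subtracting each group's mean, over the 42 mice. The genes of a mouse share its library and its dissected piece. Of 28 pairs, 8 passed an adjusted permutation p of 0.05, 6 with positive and 2 with negative r, and by Spearman's rho 6 pairs passed. Pairs of other genes were not put through the same test, so the count has no background beside it. Permutations were made within group and batch.

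Uchl1, Synj1 and Atp13a2 rose and fell together. Uchl1 and Synj1 had r = 0.64 (rho = 0.62, permutation p = 5e-05, adjusted p = 0.00126 over the 28 pairs), and without the 2 mice farthest from the median of the first gene of the pair r was 0.56. Atp13a2 had r = 0.58 with Synj1 (rho = 0.57, adjusted permutation p = 0.00636) and r = 0.51 with Uchl1 (rho = 0.47, adjusted permutation p = 0.00539), and 0.55 and 0.60 without those mice. Within batches before correction, r of Uchl1 and Synj1 was 0.33 in batch 1, 0.58 in batch 2 and 0.89 in batch 3.

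A second set joined Lrrk2 and Vps35, with Pink1 moving the other way. Lrrk2 and Vps35 had r = 0.58 (rho = 0.55, adjusted permutation p = 0.00467), and r = 0.52 without the 2 farthest mice. Pink1 and Vps35 had the strongest negative relation, with r = -0.66 (rho = -0.62, adjusted permutation p = 0.00126), or -0.59 without the 2 mice, and between -0.82 and -0.58 in the 3 batches. Lrrk2 and Pink1 had r = -0.52 (rho = -0.46, adjusted permutation p = 0.00636) and r = -0.41 without the 2 mice. Lrrk2 with Synj1 (r = 0.52, rho = 0.34) and Vps35 with Uchl1 (r = 0.38, rho = 0.34) also passed by Pearson's r, but at r = 0.35 and 0.28 they no longer did without the 2 farthest mice. Those mice were picked by their level of the first gene, which narrows its range, so whether a relation rests on them cannot be read from this. By Spearman's rho neither pair passed (adjusted permutation p = 0.142 and 0.087). On counts before correction Lrrk2 with Synj1 passed (r = 0.54, adjusted permutation p = 0.0145), with r of 0.73, 0.26 and 0.62 in batches 1, 2 and 3. Vps35 with Uchl1 failed over all 42 mice on those counts (r = 0.25, adjusted permutation p = 0.251), with r of 0.71, 0.16 and 0.13 in the same batches. Park7 and Fbxo7 were in none of the 8 pairs.

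**Figure D3:**
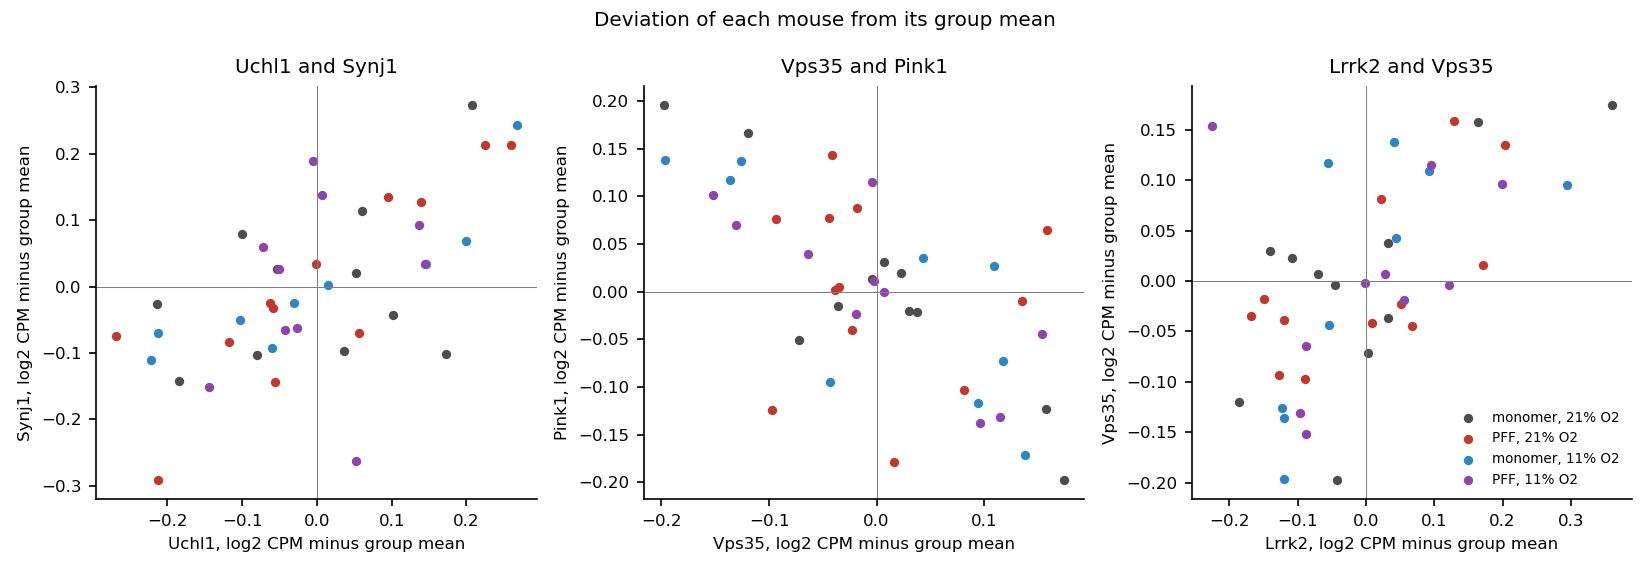
Deviation of each mouse from its group mean in log2 CPM for 3 pairs of genes, with colour giving the group. Uchl1 and Synj1 rise together (r = 0.64), Pink1 falls as Vps35 rises (r = -0.66) and Vps35 rises with Lrrk2 (r = 0.58), with mice of all 4 groups along each trend.

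The same deviations were set against the mean deviation of each of 7 marker lists, none of which contained any of the 8 genes. This relation was added after the other results had been seen. Of 56 relations, 28 passed an adjusted permutation p of 0.05. How often other genes would pass with these lists was not computed, so the count is not read as a trait of the 8 genes. Synj1 and Uchl1 followed neuron markers, with r = 0.81 and 0.78 (rho = 0.83 and 0.74, adjusted permutation p = 9.33e-05 for both), and r = 0.77 and 0.74 without the 2 farthest mice. Uchl1 also followed dopaminergic neuron markers, with r = 0.71 (rho = 0.79), and ran against astrocyte markers with r = -0.80 (rho = -0.83) and microglia markers with r = -0.79 (rho = -0.77). Pink1 ran with astrocyte markers, at r = 0.52 (rho = 0.51, adjusted permutation p = 0.00240), whereas Lrrk2 and Vps35 ran against them, at -0.61 and -0.58 (rho = -0.50 for both). Park7 passed with none of the 7 lists and Fbxo7 with 1, oligodendrocyte markers, at r = 0.38 (rho = 0.46, adjusted permutation p = 0.0289).

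**Figure D4:**
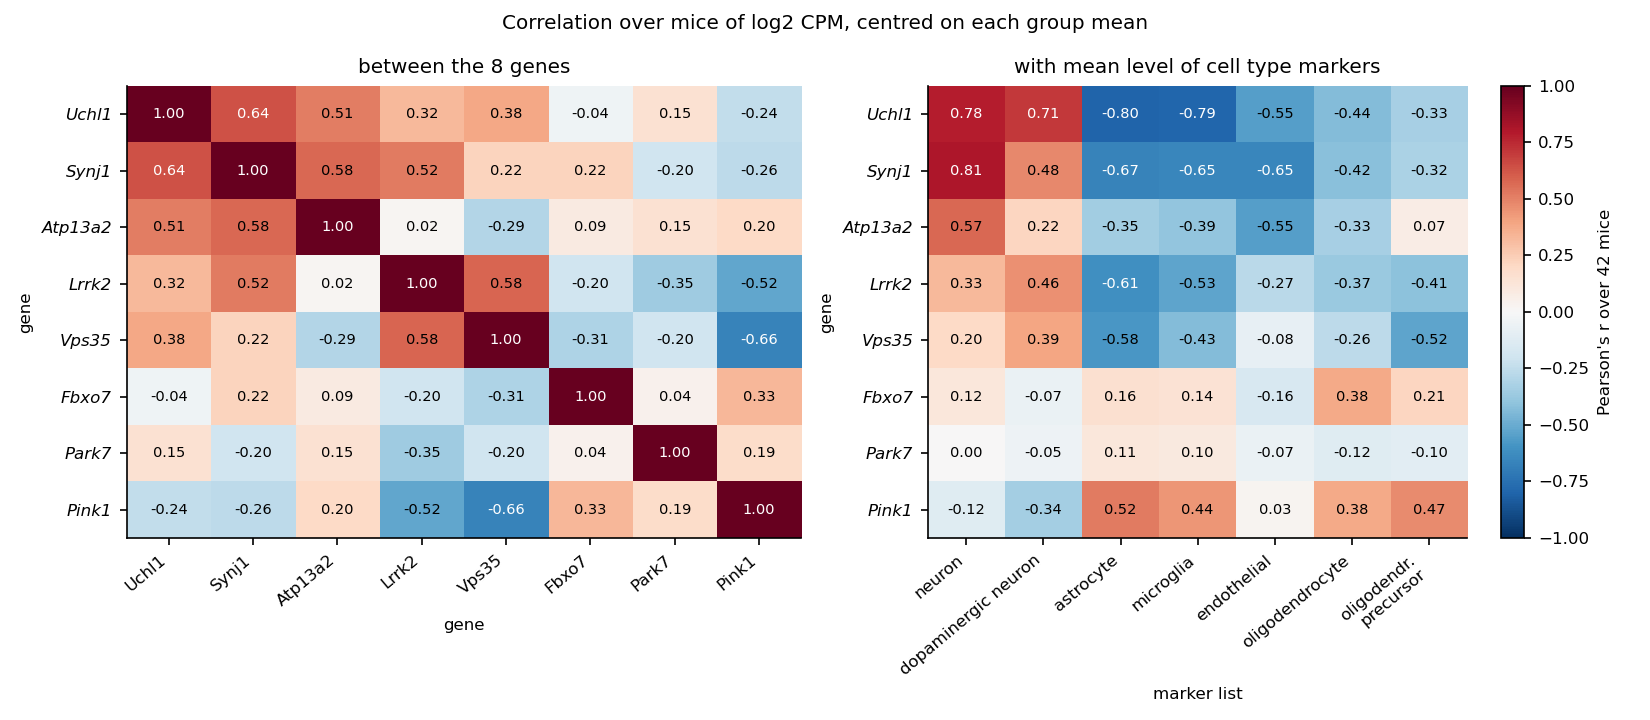
Pearson's r over 42 mice of log2 CPM centred on group means, between the 8 genes (left) and between each gene and the mean of 7 cell type marker lists (right); red is positive and blue negative. Uchl1 and Synj1 are red with neuron markers (0.78 and 0.81) and blue with astrocyte markers (-0.80 and -0.67), and Pink1 shows 0.52 with astrocyte markers.

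The genes with the most similar pattern over mice, by r of the same centred log2 CPM over the 42 mice, were named as a description. For Synj1 they were Map1b (0.95), Myo5a (0.92) and Cds2 (0.92). For Atp13a2 they were Pip5k1c (0.93), Fbxo31 (0.92) and Clstn3 (0.92), and for Uchl1 they were Reep2 (0.92), Rtn1 (0.91) and Magee1 (0.91). These 3 genes had neighbours with r above 0.90. For Vps35 the nearest genes were Ptbp2 (0.87), Klhl7 (0.86) and Serinc1 (0.86), for Park7 they included Elob (0.82) and Psmb6 (0.81), and for Pink1 they included Ckb (0.80) and 2310022B05Rik (0.80). Lrrk2 was nearest to Dhx9 (0.77), Pja2 (0.75) and Dmxl2 (0.75), and Fbxo7 to Actr1a (0.66), D5Ertd579e (0.63) and B3galt5 (0.63), the lowest values of the 8. Among the 50 nearest genes of each of the 8, 12 genes were shared by 2 of them and none by more. Of these, 8 were shared by Lrrk2 and Vps35, among them Usp9x, a deubiquitinase, and 4 by Synj1 and Uchl1, among them Snap91, which encodes the clathrin adaptor AP180.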

How the data were processed

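Poly(A)-selected RNA of the substantia nigra was sequenced. The authors aligned reads to mm10 with STAR 2.7.5a and GENCODE vM24, removed duplicates with Picard 2.21.9 (GATK 4.1.5.0-9) and counted reads per gene with featureCounts 2.0.1, keeping the primary alignment of multimapping reads and giving no strand option. Scanpy 1.8.1 served their principal component analysis, after which they left out 6 of 48 mice and adjusted the counts of the other 42 for 3 batches, linked to harvest date, with ComBat-seq while preserving injection and O2. The deposited counts are whole numbers per gene, before and after this correction, and the deposited TPM values are the same data scaled by the authors for gene length and library total. Correction moves levels between batches, and tests on corrected counts do not spend degrees of freedom on batch.

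Corrected counts of the 42 mice (12360798 to 16566973 per mouse) were fitted over 4 groups with edgeR 4.0.16 (TMM, filterByExpr, quasi-likelihood test, Benjamini-Hochberg adjustment over 14839 genes) in R 4.3.3. Genes counted as called where the adjusted p was under 0.05 and the log2 change exceeded 0.25 in either direction, and intervals are 95%. P-values measure the spread between mice. The code was tested on simulated data. Mouse-to-mouse relations used log2 CPM (prior count 2), 100000 permutations within group and batch, whose smallest p is 1e-05, and SciPy 1.17.1 in Python 3.11.15. DESeq2 1.42.0, limma 3.58.1 on TPM, uncorrected counts, single batches and leaving out each mouse were alternatives.

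The 8 genes and all lists were chosen with earlier results of these data known. Genes named from a list were those called and the one with the smallest p in each comparison, and the 3 most alike genes by r were named for each of the 8. Some genes that these rules name are not reported here. Replicate numbers were checked for pairing: 21 of 54 same-numbered pairs across groups had a correlation of deviations over 0.1 (median 0.0033), so the numbers were not taken as pairs. The paper describes assigning matched mice to groups at random, and this matching was not part of the main fit.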

Additional observations from a re-analysis of the deposited data

How the results depend on the processing

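No alternative called any of the 8 genes by both thresholds, and with the replicate number as a block the count was 0 in every comparison. The block changed no call of the 8 genes. By the adjusted p alone, the count for PFF at 21% O2 was 1 (Lrrk2) in place of 0, and leaving out 1 mouse gave counts by both thresholds of 0 to 0. With the block Lrrk2 had -0.19 and an adjusted p of 0.0379 in edgeR. Of 504 fold changes under other settings, 45 changed sign, and of 1680 leaving out 1 mouse, 76 did, over 16 of 40 results. All were small, from -0.08 to 0.11, and none had an unadjusted p under 0.05 with or without the setting, so they were not counted as reversed. Of the 28 pairs of genes, 8 passed over 42 mice, against 0 in batch 1 alone, 0 in batch 2 alone and 1 in batch 3 alone, where 13 to 15 mice were left. Mean TPM before correction moved by over 1 SD for 28 of 64 values. Over the 42 mice all 8 genes were lower before it, Uchl1 at 904 against 979 TPM and Lrrk2 at 6.17 against 6.71. Values before correction covered 55385 genes and those after it 19601. In this shift of TPM the gene set and the batch correction cannot be told apart. Over all genes, hypoxia in monomer-injected mice called 1073 genes and, on uncorrected counts with batch as a covariate, 657. The interaction called 318, against 96 higher and 109 lower in that fit and 152 with all 48 mice, and hypoxia in PFF-injected mice called 86, against 57 without a batch term. In single batches, PFF at 21% O2 called 9 and 580 in place of 549, hypoxia in monomer-injected mice 297, hypoxia in PFF-injected mice 6, 7 and 2, and the interaction 11. The cause of these differences was not tested. Lrrk2, with a median of 298 counts per mouse, had the least depth of the 8 genes.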

Other observations

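The 6 mice left out of the comparisons were set beside the 42 analysed ones in TPM before correction. Replicate 2 of the PFF-injected mice at 11% O2, whose library held 3134594 counts, the fewest of 48, lay outside the range of the 42 for 6 of the 8 genes. Pink1 was at 456 TPM there, against a lowest value of 567.04 in the analysed mice, and Vps35 (43.9), Atp13a2 (64.3), Fbxo7 (24.7) and Synj1 (103) were also below the range, whereas Uchl1 was above it at 1181 TPM. Replicate 8 of the monomer-injected mice at 11% O2 was outside for 3 genes, with Uchl1 at 513, Atp13a2 at 82.1 and Synj1 at 104 TPM. Replicate 9 of the same group was outside for 2, with Lrrk2 at 4.60 and Uchl1 at 652, and replicate 10 of the monomer-injected mice at 21% O2 for 1, Uchl1 at 681. The other 2 mice lay within the range for all 8 genes. Park7 was within the range in all 6.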
